A study of Homo sapiens with 10 samples.

Results

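The 36 genes described here encode proteins that drive and check mitosis, from the kinases of mitotic entry to the proteins of cytokinesis. They were taken by symbol from the deposited count table, where each has 1 row, and are 36 of its 28380 genes. The counts come from RPE-1 cells, an established line of human retinal pigment epithelial cells immortalized with telomerase. The cells were given sulforaphane (SFN), an isothiocyanate of cruciferous vegetables, at 25 µM or its vehicle dimethyl sulfoxide (DMSO), each for 4 h. Each treatment had 5 replicates of 50000 cells, and no other treatment or genetic change separates the groups. The study describes its experiments in general as done on independent replicates but does not say for this RNA whether they were separate cultures, so the p-values below measure the spread between these samples, part of which may be technical.

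Cells that enter mitosis activate the kinase CDK1 with a B-type cyclin, condense their chromosomes and attach them to spindle microtubules through kinetochores. The spindle assembly checkpoint holds back the anaphase-promoting complex (APC/C), a ubiquitin ligase that ends mitosis by marking cyclin B and securin for destruction, until the kinetochores are attached. Most mRNAs of these proteins are made in G2 and M and held low in G1 by the DREAM complex. Its MuvB core reads a promoter element called the cell cycle genes homology region (CHR) and later joins MYBL2, a relative of MYB, and FOXM1 to activate the same promoters, many of which also bind the CCAAT factor NF-Y.

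The RefSeq promoter table for GRCh38.p14 held windows from 250 bases before to 50 bases after the start of 30 of the 36 members, 40 windows in all, since some members have several starts. It held no window for AURKA, BIRC5, BUB3, TPX2, TTK and UBE2C. The letters TTTGAA, the CHR core, occurred on either strand in 24 of the 40 windows (60.0%), which belong to 21 members. They were in 15.2% of all 35116 windows that RefSeq gives, and of the windows of S-phase genes, which are regulated earlier in the cycle, 4 of 46 (8.7%). CCAAT, the NF-Y box, occurred on either strand in 31 of the 40 member windows (77.5%), in 69.6% of the S-phase windows and in 34.6% of all windows. TTCGAA, a variant of the CHR that reads the same on both strands and shares no position with TTTGAA, was found in 2 member windows (5.0%) and in 1.45% of all windows. Windows of 1 gene can overlap, and a match describes letters only, not a bound site. The 100 bases before the start are printed below for 8 members. CCNB2, PLK1, CDK1, HMMR and MKI67 are shown as promoters that hold both motifs in this stretch, in differing order and number. CDK1 has a further start that is not printed, and the 100 bases before it (chr10:60778231-60778330) hold neither motif. CENPA is shown with TTTGAA alone, as its CCAAT letters begin further upstream, 205 and 130 bases before the start. CENPA and HMMR were increased by SFN. AURKB, which was increased, and CENPE, which was decreased, are shown as promoters without these letters in this stretch. Capitals mark TTTGAA and CCAAT as read on either strand, so that CCAAT on the opposite strand appears as ATTGG. In HMMR CCAAT overlaps its own complement, and in MKI67 the second TTTGAA shares its last base with ATTGG. The intervals are chr15:59105046-59105145 on the + strand for CCNB2, chr16:23678789-23678888 (+) for PLK1, chr10:60778378-60778477 (+) for CDK1, chr2:26785956-26786055 (+) for CENPA, chr5:163460532-163460631 (+) for HMMR, chr10:128126424-128126523 on the - strand for MKI67, chr17:8210226-8210325 (-) for AURKB and chr4:103198344-103198443 (-) for CENPE.
CCNB2: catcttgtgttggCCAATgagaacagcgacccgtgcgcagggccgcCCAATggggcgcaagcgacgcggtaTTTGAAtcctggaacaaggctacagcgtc
PLK1: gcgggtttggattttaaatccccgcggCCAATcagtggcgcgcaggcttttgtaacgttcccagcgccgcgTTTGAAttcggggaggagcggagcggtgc
CDK1: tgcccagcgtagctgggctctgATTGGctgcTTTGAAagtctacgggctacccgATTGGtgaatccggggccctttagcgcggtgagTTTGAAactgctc
CENPA: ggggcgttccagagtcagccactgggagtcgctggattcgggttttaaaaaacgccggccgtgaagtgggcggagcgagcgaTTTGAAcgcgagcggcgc
HMMR: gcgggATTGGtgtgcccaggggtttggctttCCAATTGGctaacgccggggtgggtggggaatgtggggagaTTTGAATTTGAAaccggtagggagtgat
MKI67: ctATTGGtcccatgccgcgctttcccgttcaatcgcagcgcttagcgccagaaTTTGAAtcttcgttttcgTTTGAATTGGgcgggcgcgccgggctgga
AURKB: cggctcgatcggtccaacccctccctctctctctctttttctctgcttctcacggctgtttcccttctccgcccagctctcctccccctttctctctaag
CENPE: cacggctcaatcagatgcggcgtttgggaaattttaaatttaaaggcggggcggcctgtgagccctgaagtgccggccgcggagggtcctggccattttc

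Libraries held between 12375860 and 20666692 counts, and every member had between 112 and 41183 counts in each library. CPM below are counts relative to the library total after scaling by TMM, a method that equalizes libraries on the bulk of their genes. DMSO replicate 1 stood apart from the other libraries before any comparison. Its log2 CPM changed by -0.260 for each doubling of transcript length relative to the mean of all libraries, against 0.0824 to 0.135 in the other DMSO replicates. Because of this, results are given with and without DMSO replicate 1. In SFN replicates 1 to 5 the slopes were -0.0413, -0.172, -0.0525, -0.0312 and 0.104. All but that of SFN replicate 5 lay below those of DMSO replicates 2 to 5. Leaving out DMSO replicate 1 therefore does not remove the difference in slope between the groups. Of 14 genes that mark retinal pigment epithelium, OTX2, MITF, BEST1, KRT8 and KRT18 were present, whereas the other 9, RPE65 and RLBP1 among them, had no row or stayed under 2 CPM. The markers of leukocytes and endothelium stayed under 1 CPM in every library or had no row, and those of erythroid cells had no row.

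SFN raised a small set of the mitosis genes, all less than 2-fold, and lowered 1. In the quasi-likelihood test of edgeR, adjusted over all genes by the Benjamini-Hochberg method, 6 of the 36 were increased (AURKA, BUB3, UBE2C, AURKB, CENPA and HMMR), 1 was decreased (CENPE) and 29 did not pass the test. The 7 called members are 19.4% of the 36, where 23.0% of the 13378 genes tested were called, and all 36 members were among the genes tested. By direction, 16.7% of the members were increased against 9.07% of all genes, and 2.78% were decreased against 13.9%. With libraries scaled by their totals alone, 5 members were increased and 1 decreased, while over all genes the split moved from 1214 increased and 1862 decreased to 819 and 2163. The median log2 fold change of the members was 0.12, with a range from -0.74 to 0.81, beside a median of -0.03 over all genes, and 26 of the 36 values were positive. Scaling by totals alone gave medians of 0.05 and -0.11.

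In 8 members every SFN library lay above every DMSO library, and in 1 every SFN library lay below, out of 36, where over all genes tested 8.78% lay above and 11.1% below, 19.9% in all. The 8 were AURKA, AURKB, BUB1, BUB3, TTK, CENPA, DLGAP5 and HMMR, and the 1 was CENPE. No member reached the DEG definition of the study, an adjusted p under 0.05 with a change of more than 2-fold, whereas 8.69% of all genes tested did. That count was also 0 at an unadjusted p under 0.05 and by DESeq2's Wald test, and 1 by limma-voom with sample quality weights. A lower share of mitotic cells and less of an mRNA in each cell cannot be told apart in bulk RNA, nor can a higher share and more of it. Of the members printed above with TTTGAA before the start, CENPA and HMMR were called with all libraries, and CCNB2, PLK1, CDK1 and MKI67 were not. The printed members are examples and not all that hold these letters, and the increased AURKA, BUB3 and UBE2C had no window. Whether the letters go with the response was not tested.

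Without DMSO replicate 1, 14 members were increased and 5 decreased by the same test, 52.8% of the 36, while the background rose to 46.1% of 13566 genes. The increases then covered 38.9% of the members against 22.5% of all genes, and the decreases 13.9% against 23.5%. The 7 members called with all libraries were all called again in the same direction. Added as increased were CCNB2, CDK1, MAD2L1, TTK, PTTG1, BIRC5, TOP2A and DLGAP5, and as decreased CDC25B, BUB1B, MKI67 and ECT2. The median log2 fold change was 0.09 with 22 positive values, beside 0.00 over all genes, and 0 members passed 2-fold (0 at an unadjusted p under 0.05).

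**Figure D1:**
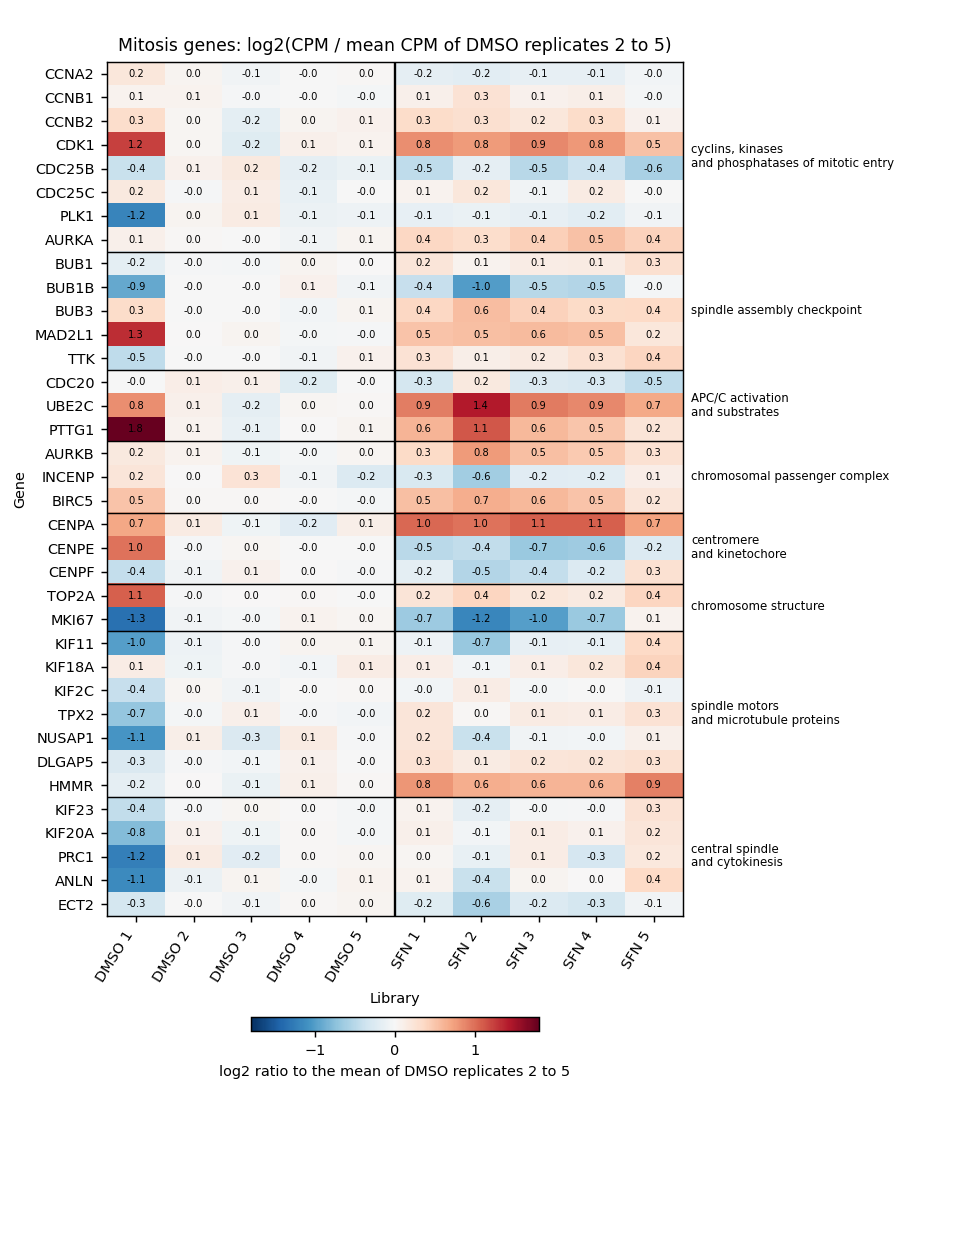
Each cell gives the log2 ratio of a library's CPM (columns: 5 DMSO, then 5 SFN libraries) to the mean of DMSO replicates 2 to 5 for 1 of the 36 mitosis genes (rows, grouped by role), with red above and blue below that mean. DMSO replicate 1 runs from -1.34 for MKI67 to 1.79 for PTTG1, while DMSO replicates 2 to 5 stay near 0, and HMMR, CENPA and UBE2C are red in every SFN library.

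Among the 8 cyclins, kinases and phosphatases of mitotic entry, AURKA was increased and none decreased (1 in each direction at an unadjusted p under 0.05, and 1 increased and 0 decreased by DESeq2). AURKA, the kinase that matures centrosomes and helps to activate PLK1, lies on chromosome 20 from 56369389 to 56392337. It stood at 157, 149, 146, 140.1 and 152 CPM in DMSO replicates 1 to 5 and at 190.4, 183, 198, 212 and 195 CPM in SFN replicates 1 to 5. The groups did not overlap, and DMSO replicate 1 was the highest DMSO library by a small margin. The mean rose from 149 ± 6.32 to 196 ± 10.8 CPM (SD, n = 5), a log2 fold change of 0.40 with a standard error (SE) of 0.09 (edgeR adjusted p = 0.0065), and the log2 fold change was 0.41 without DMSO replicate 1. AURKA passed the threshold in 21 of 22 alternatives, the exception being the fit without a low-count filter.

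None of the cyclins passed the test with all libraries. CCNA2, whose cyclin acts in S phase and G2, had a log2 fold change of -0.18 (SE 0.09), and the B cyclins CCNB1 and CCNB2 had ones of 0.09 (0.09) and 0.18 (0.11). CCNB2 did without DMSO replicate 1, with a log2 fold change of 0.25 (edgeR adjusted p = 0.030). CDK1, the catalytic partner of the B cyclins, is the member of this group that depended most on DMSO replicate 1. This library held 536 CPM of CDK1, DMSO replicates 2 to 5 between 197 and 243, and the SFN libraries between 329 and 415. The SFN libraries therefore lay above DMSO replicates 2 to 5 and below DMSO replicate 1. The CDK1 log2 fold change was 0.42 (SE 0.24, edgeR adjusted p = 0.26) with all libraries and 0.76 (SE 0.09, edgeR adjusted p = 2.2e-05) without that replicate. CDK1 and the other members whose per-library values are given outside the 7 called were picked after their values were seen, except MKI67 and ECT2.

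Of the phosphatases that remove the inhibitory phosphates of CDK1, CDC25B had a log2 fold change of -0.34 (SE 0.13) and CDC25C one of 0.04 (0.11). CDC25B passed the test without DMSO replicate 1, at -0.42 (edgeR adjusted p = 0.0044). Its SFN values, 54.8 to 73.5 CPM, overlapped the range of 73.3 to 92.7 CPM of DMSO replicates 2 to 5 only through SFN replicate 2. PLK1, the polo kinase that acts throughout mitosis, stood at 156 to 171 CPM in SFN, at 165 to 197 CPM in DMSO replicates 2 to 5 and at 78.4 CPM in DMSO replicate 1. Its log2 fold change was 0.04 (SE 0.20) with that library and -0.14 (SE 0.08) without it, and neither passed the test. CCNA2 overlaps EXOSC9 and CDC25C overlaps FAM53C on the opposite strand, and use of strand in the counting is not given in the sources used here, so the counts of CCNA2 and CDC25C are uncertain.

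Of the 5 members of the spindle assembly checkpoint, BUB3 was increased and none decreased (3 and 0 at an unadjusted p under 0.05 and 3 and 0 by DESeq2). BUB3, the WD40 protein that carries BUB1 and BUB1B to kinetochores, lies on chromosome 10 from 123154402 to 123170467. It stood at 318, 253, 252, 246 and 262 CPM in DMSO replicates 1 to 5 and at 327, 372, 338, 322 and 326 CPM in SFN replicates 1 to 5. The groups stayed apart, with DMSO replicate 1 next to the lowest SFN library. The log2 fold change was 0.34 (SE 0.10, edgeR adjusted p = 0.036) and 0.41 without DMSO replicate 1 (edgeR adjusted p = 0.00053). This call was the least stable of the 7, as it held in 7 of 22 alternatives and was lost when any library other than DMSO replicate 1 or SFN replicate 5 was left out (edgeR adjusted p from 0.056 to 0.095).

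BUB1, the kinase that recruits the other checkpoint proteins, and TTK, the kinase that starts checkpoint signalling, also had groups that did not overlap. BUB1 ranged from 177 to 206 CPM in DMSO and from 209 to 244 CPM in SFN, with a log2 fold change of 0.21 (SE 0.09, edgeR adjusted p = 0.13). TTK ranged from 58.2 to 84.6 CPM in DMSO and from 86.5 to 105 CPM in SFN, with a log2 fold change of 0.32 (SE 0.12, edgeR adjusted p = 0.068), and passed the test without DMSO replicate 1 (0.23, edgeR adjusted p = 0.028). The other checkpoint members turned on DMSO replicate 1. MAD2L1, which forms the inhibitor of the APC/C, was at 451 CPM there, at 176 to 186 CPM in DMSO replicates 2 to 5 and at 208 to 268 CPM in SFN. MAD2L1 had a log2 fold change of 0.10 (SE 0.26) with that library and of 0.48 (SE 0.09, edgeR adjusted p = 0.00054) without it. BUB1B, the checkpoint protein that binds CDC20, went the other way. It was at 142 CPM in DMSO replicate 1, at 257 to 284 CPM in DMSO replicates 2 to 5 and at 135 to 262 CPM in SFN, where replicate 2 was the lowest and replicate 5 the highest. The BUB1B log2 fold change was -0.32 (SE 0.21) with all libraries and -0.47 (SE 0.14, edgeR adjusted p = 0.014) without DMSO replicate 1.

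**Figure D2:**
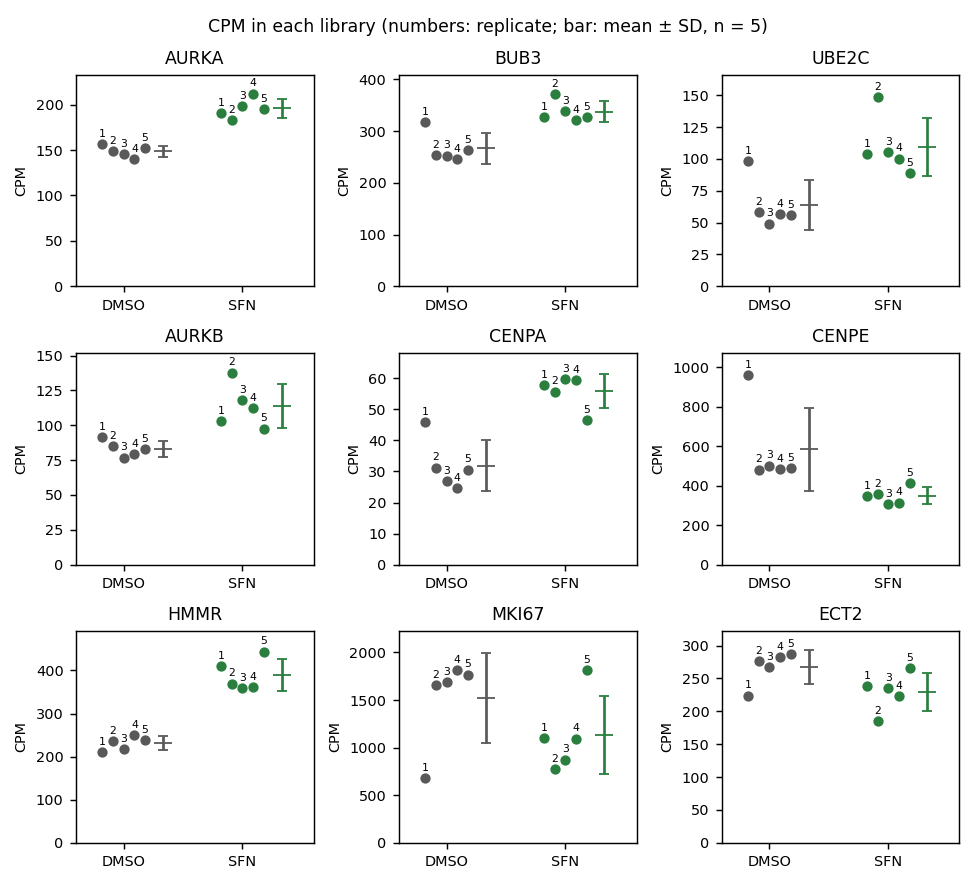
Points are the CPM of each library (y axis, starting at 0; numbers give the replicate) in DMSO and SFN, with the mean ± SD (n = 5) at the right of each group, for the 7 members with an adjusted p under 0.05 and for MKI67 and ECT2. In AURKA, BUB3, UBE2C, AURKB, CENPA and CENPE DMSO replicate 1 is the highest DMSO library, and in HMMR, MKI67 and ECT2 it is the lowest.

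Of the 3 activators and substrates of the APC/C, UBE2C was increased and none decreased (1 and 0 at an unadjusted p under 0.05 and 1 and 0 by DESeq2). UBE2C, the ubiquitin-conjugating enzyme that works with the APC/C, lies on chromosome 20 from 45812576 to 45816957. It stood at 98.1, 58.4, 49.2, 56.6 and 55.9 CPM in DMSO replicates 1 to 5 and at 104, 149, 105, 100.2 and 88.5 CPM in SFN replicates 1 to 5. Here the groups overlapped, because DMSO replicate 1 exceeded SFN replicate 5, and DMSO replicates 2 to 5 all lay below every SFN library. The mean rose from 63.6 ± 19.6 to 109 ± 22.9 CPM (SD, n = 5), a log2 fold change of 0.78 (SE 0.20, edgeR adjusted p = 0.015), and without DMSO replicate 1 the log2 fold change was 0.98. UBE2C passed the threshold in 22 of 22 alternatives.

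CDC20, which activates the APC/C and is its checkpoint target, had a log2 fold change of -0.21 (SE 0.13) that did not pass the test. SFN replicate 2 held 88.2 CPM of CDC20 and the other SFN libraries between 57.1 and 65.5. PTTG1 encodes securin, the inhibitor of separase. It was at 285 CPM in DMSO replicate 1 against 74.8 to 85.6 CPM in DMSO replicates 2 to 5 and 96.5 to 178 CPM in SFN. No member differed more between DMSO replicate 1 and the other DMSO libraries. The PTTG1 log2 fold change was 0.06 (SE 0.36) with all libraries and 0.63 (SE 0.14, edgeR adjusted p = 0.0022) without that library. PTTG1 has near-identical copies elsewhere in the genome, so its counts are uncertain.

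In the chromosomal passenger complex AURKB was increased, the other 2 members did not pass the test, and none was decreased (2 and 0 at an unadjusted p under 0.05 and 2 and 0 by DESeq2). AURKB, the kinase of this complex that corrects faulty attachments, lies on chromosome 17 from 8204733 to 8210600. It stood at 91.4, 84.8, 76.8, 79.2 and 83.0 CPM in DMSO replicates 1 to 5 and at 103, 138, 118, 112 and 97.7 CPM in SFN replicates 1 to 5. The groups did not overlap, and SFN replicate 2 was the highest library. The mean rose from 83.0 ± 5.63 to 114 ± 15.6 CPM (SD, n = 5), a log2 fold change of 0.45 (SE 0.11, edgeR adjusted p = 0.012), which was 0.48 without DMSO replicate 1 and passed the threshold in 22 of 22 alternatives. BIRC5, the survivin subunit, had a log2 fold change of 0.39 (SE 0.13, edgeR adjusted p = 0.056). It was at 419 CPM in DMSO replicate 1, at 288 to 298 CPM in the other DMSO libraries and at 342 to 462 CPM in SFN, and its log2 fold change without DMSO replicate 1 was 0.50 (edgeR adjusted p = 0.00045). INCENP, the scaffold, had a log2 fold change of -0.26 (SE 0.15) and overlapping groups.

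The 3 members of centromere and kinetochore included both the called member with the largest increase and the called decrease. CENPA, the histone H3 variant that marks centromeres, lies on chromosome 2 from 26764289 to 26801067. It stood at 45.9, 31.3, 26.9, 24.6 and 30.6 CPM in DMSO replicates 1 to 5 and at 57.9, 55.7, 59.7, 59.5 and 46.6 CPM in SFN replicates 1 to 5. The groups did not overlap, although DMSO replicate 1 came close to SFN replicate 5. The mean rose from 31.9 ± 8.31 to 55.9 ± 5.43 CPM (SD, n = 5), a log2 fold change of 0.81 (SE 0.16, edgeR adjusted p = 0.0039), or 0.97 without DMSO replicate 1. CENPA passed the threshold in 22 of 22 alternatives. SLC35F6 overlaps CENPA on the same strand and had 2143 counts over all libraries where CENPA had 6791, so reads of the overlap could be split between them.

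CENPE, the kinesin that brings chromosomes to the spindle equator, lies on chromosome 4 from 103105349 to 103198445. It stood at 960.2, 481, 501, 484 and 488 CPM in DMSO replicates 1 to 5 and at 347, 358, 307, 314 and 414 CPM in SFN replicates 1 to 5. The groups did not overlap, and DMSO replicate 1 lay far above the other DMSO libraries, which were close together. The mean fell from 583 ± 211 to 348 ± 42.6 CPM (SD, n = 5), a log2 fold change of -0.74 (SE 0.20, edgeR adjusted p = 0.020). Without DMSO replicate 1 the log2 fold change was -0.49, with an SE of 0.09 (edgeR adjusted p = 0.00058). The call was lost when the length trend of each library was removed (edgeR adjusted p = 0.096) and without SFN replicate 3 (edgeR adjusted p = 0.057) or SFN replicate 4 (edgeR adjusted p = 0.051), and held in 18 of 22 alternatives. CENPF, a kinetochore and nuclear matrix protein of G2 and M, had a log2 fold change of -0.11 (SE 0.16), with 947 to 1345 CPM in DMSO and 889.5 to 1552 CPM in SFN.

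Of the proteins of chromosome structure, neither TOP2A nor MKI67 passed edgeR's quasi-likelihood test (0 at an unadjusted p under 0.05 and 0 by DESeq2). MKI67, which encodes the proliferation marker Ki-67 that coats mitotic chromosomes, lies on chromosome 10 from 128096659 to 128126423. It stood at 683, 1654, 1688, 1817 and 1767 CPM in DMSO replicates 1 to 5 and at 1097, 771, 874, 1095 and 1817 CPM in SFN replicates 1 to 5. The groups overlapped at both ends, since DMSO replicate 1 was the lowest of the 10 libraries and SFN replicate 5 lay level with the highest DMSO library. The MKI67 log2 fold change was -0.43 (SE 0.28, edgeR adjusted p = 0.32) with all libraries and -0.62 (SE 0.19, edgeR adjusted p = 0.015) without DMSO replicate 1. TOP2A, the topoisomerase that untangles sister chromatids, was at 2565 CPM in DMSO replicate 1, at 1204 to 1237 CPM in the other DMSO libraries and at 1365 to 1600.2 CPM in SFN. Its log2 fold change was -0.01 (SE 0.21) with all libraries and 0.27 (SE 0.08, edgeR adjusted p = 0.0093) without that library.

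Of the 7 spindle motors and microtubule proteins, HMMR was increased and none decreased (2 and 0 at an unadjusted p under 0.05 and 2 and 0 by DESeq2). HMMR, a microtubule-binding protein that places TPX2 on the spindle, lies on chromosome 5 from 163460203 to 163491941. It stood at 210.4, 236, 218, 251 and 238 CPM in DMSO replicates 1 to 5 and at 410.0, 369, 359, 361 and 444 CPM in SFN replicates 1 to 5. The groups lay far apart, and DMSO replicate 1 was the lowest DMSO library by a small margin. The mean rose from 231 ± 16.3 to 389 ± 37.1 CPM (SD, n = 5), a log2 fold change of 0.75 (SE 0.10, edgeR adjusted p = 0.00029), the smallest p of the 36 members. Without DMSO replicate 1 the HMMR log2 fold change was 0.72, and over 22 alternatives it ranged from 0.65 to 0.78 and always passed the threshold.

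DLGAP5, which stabilizes spindle fibres near chromosomes, ranged from 200.3 to 255 CPM in DMSO and from 267 to 292 CPM in SFN, so that the groups did not overlap. Its log2 fold change was 0.28 (SE 0.10, edgeR adjusted p = 0.056), or 0.22 without DMSO replicate 1 (edgeR adjusted p = 0.019). For TPX2, the activator of AURKA, the log2 fold change was 0.27 (SE 0.14). KIF11, the motor that separates spindle poles, had one of 0.05 (0.22), KIF18A, which limits chromosome oscillation, 0.14 (0.11), the microtubule depolymerase KIF2C 0.07 (0.11) and NUSAP1, a microtubule bundler, 0.14 (0.21). None of these passed the test with or without DMSO replicate 1, and in KIF11, KIF2C and NUSAP1 the sign turned without it. The counts of NUSAP1 are uncertain, since OIP5-AS1 overlaps it on the same strand with 14304 counts over all libraries against 11872 for NUSAP1.

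None of the 5 members of central spindle and cytokinesis passed edgeR's quasi-likelihood test with all libraries (0 at an unadjusted p under 0.05 and 0 by DESeq2). ECT2, which activates RhoA to set up the cleavage furrow, had the smallest p of the group and lies on chromosome 3 from 172750682 to 172821474. It stood at 224, 277, 267, 282 and 287 CPM in DMSO replicates 1 to 5 and at 238, 185, 235, 223 and 266 CPM in SFN replicates 1 to 5. Every SFN library lay below DMSO replicates 2 to 5, while DMSO replicate 1 fell among the SFN libraries. Its log2 fold change was -0.22 (SE 0.12, edgeR adjusted p = 0.22) with all libraries and -0.28 (edgeR adjusted p = 0.027) without DMSO replicate 1. KIF23 had a log2 fold change of 0.11 (SE 0.12) and KIF20A, the other motor of the central spindle, one of 0.22 (0.15), while the microtubule bundler PRC1 had one of 0.17 (0.22) and ANLN, the scaffold of the contractile ring, one of 0.20 (0.22). All 4 were lower in DMSO replicate 1 than in any other library, and without it their log2 fold changes lay between -0.01 and 0.09. The counts of PRC1 and KIF20A are uncertain, the first because a readthrough gene shares its strand and the second because BRD8 and CDC23 overlap it on the opposite strand.

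**Figure D3:**
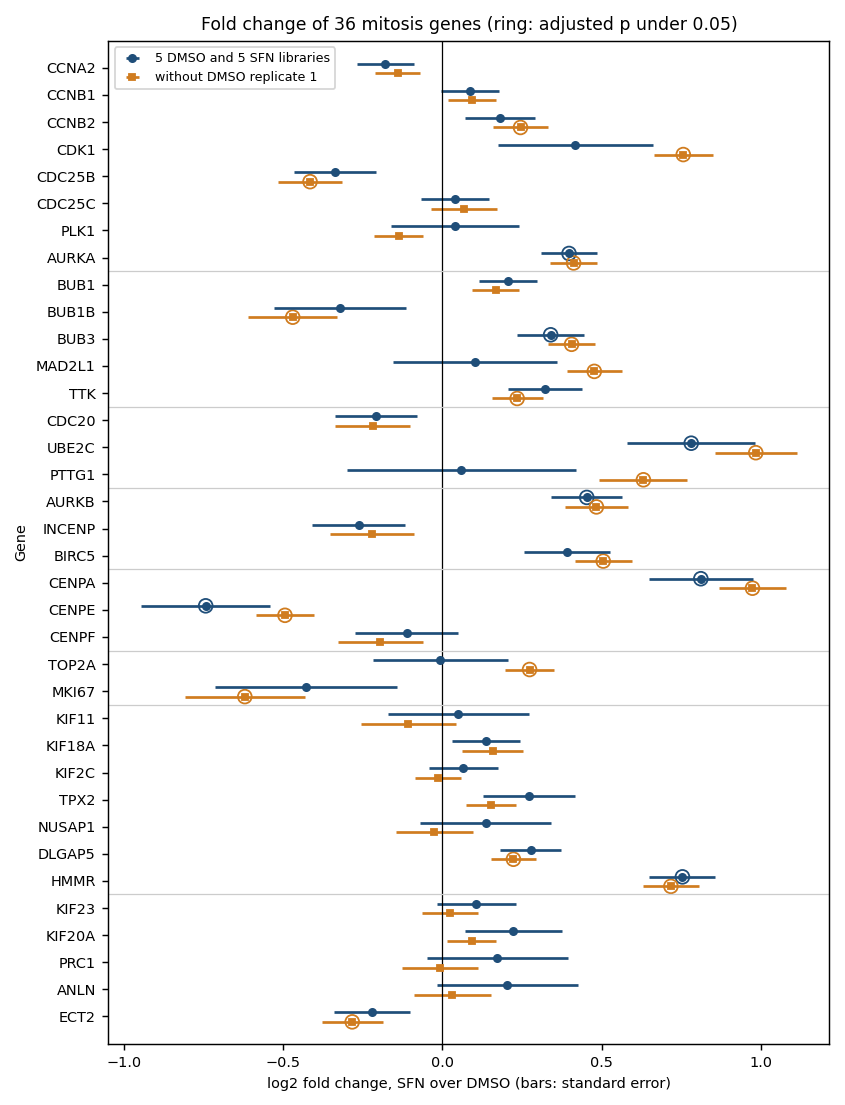
For each of the 36 mitosis genes (rows, grouped by role) the x axis gives the log2 fold change of SFN over DMSO with its standard error, in blue for all libraries and in orange without DMSO replicate 1, and a ring marks an adjusted p under 0.05 by edgeR's quasi-likelihood test. With all libraries 7 genes carry a ring, and without DMSO replicate 1 19 do, on shorter error bars in most rows.

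The deviation of DMSO replicate 1 split the members rather than shifting them together. Relative to the mean of the other DMSO replicates, 7 members lay more than 1.5-fold above and 9 more than 1.5-fold below, with log2 differences from 1.79 for PTTG1, 1.32 for MAD2L1, 1.23 for CDK1 and 1.07 for TOP2A to -1.34 for MKI67, -1.23 for PRC1, -1.18 for PLK1 and -1.15 for ANLN. Summed over the members, however, this library held 11235 CPM, inside the range of 11083 to 11398 CPM of the other DMSO libraries. The sum ran from 10475 CPM in SFN replicate 2 to 13227 CPM in SFN replicate 5, a range that encloses all DMSO libraries. The summed level of mitosis mRNA therefore did not separate the groups. Abundant genes weigh most in this sum, such as MKI67, at 771 CPM in SFN replicate 2 and 1817 CPM in SFN replicate 5.

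Transcript length moved with several of these differences. In SFN replicate 5 the Spearman correlation across the 36 members between the length of the canonical transcript and the log2 ratio to the mean of the other SFN libraries was 0.72, with the long MKI67, CENPF and KIF11 high and the short PTTG1 low. In SFN replicate 2 the correlation was -0.55 and in DMSO replicate 1 -0.28. Over all genes it was 0.57 in SFN replicate 5, -0.49 in SFN replicate 2 and -0.52 in DMSO replicate 1, so the trend was not particular to the members. The log2 fold changes of the members had a correlation with length of -0.45 with all libraries and -0.49 without DMSO replicate 1, beside -0.16 and -0.35 over all genes, and -0.25 once the length trend of each library was removed. These correlations are across genes that share libraries and depth, and genes are not independent replicates. With the length trend removed, 9 members were increased and 0 decreased by edgeR's quasi-likelihood test (11 and 4 at an unadjusted p under 0.05). Of all 13378 genes tested, 1659 were then increased and 2144 decreased, against 1214 and 1862 without this removal. The part of transcript length in the members' differences was not tested further. DMSO replicate 1 and SFN replicates 2 and 5 were also all left out, a choice made after seeing the data. In that fit 16 of the 36 members were increased and 9 decreased, and CENPA alone passed 2-fold. Of all 13661 genes then tested, 27.8% were increased and 28.2% decreased. The share of increased members thus lay above that of all genes, and the share of decreased members below it.

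**Figure D4:**
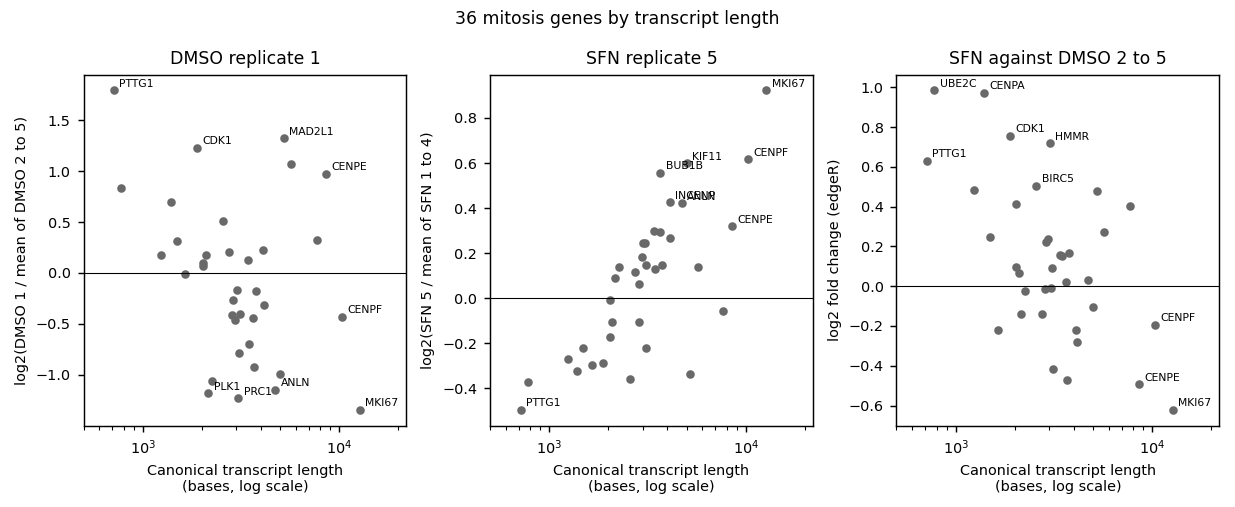
Each point is 1 of the 36 mitosis genes, placed by the length of its canonical transcript (x axis, bases, log scale) and, on the y axes, by its log2 ratio in DMSO replicate 1 to the mean of DMSO replicates 2 to 5 (left), in SFN replicate 5 to the mean of SFN replicates 1 to 4 (middle) and by its log2 fold change without DMSO replicate 1 (right). The middle panel rises with length (Spearman correlation 0.72), and the right panel falls (-0.49), with UBE2C, CENPA and CDK1 at the top and MKI67 and CENPE at the bottom.

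Beyond the 36 members, 162 other genes of mitosis were listed by function, of which 161 could be tested. By edgeR's quasi-likelihood test 14 were increased and 19 decreased, 20.5% in all against 23.0% of all genes, with a median log2 fold change of -0.01. Without DMSO replicate 1 the counts were 39 and 38 (24.2% and 23.6%), against 22.5% and 23.5% of all genes. With all libraries the members thus stood at 16.7% increased and 2.78% decreased beside 8.7% and 11.8% of the other mitotic genes. In the kinetochore list MIS12, a subunit of the complex that ties microtubule binders to centromeric chromatin, rose from 42.3 ± 7.42 to 84.4 ± 3.60 CPM (SD, n = 5), with a log2 fold change of 0.997 (SE 0.12, edgeR adjusted p = 0.00015). CENPL and HJURP, the chaperone that loads CENPA, were also increased in that list of 40, with log2 fold changes of 0.54 and 0.35, while SPC24, CENPI and SKA3 were decreased (-0.79, -0.65 and -0.48). The kinetochore list had 13 increased and 4 decreased genes without DMSO replicate 1, and the log2 fold change of SPC24, at 168 CPM in that library and 71.3 to 86.7 CPM in the other DMSO libraries, was -0.49. HJURP is named for its tie to CENPA and SKA3 to complete this count, both after their values were seen.

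Among 43 genes of the spindle and cytokinesis tested, 6 were increased and 6 decreased, and 10 and 12 without DMSO replicate 1. The motors KIF15, KIF20B and KIFC1 were decreased, with log2 fold changes of -0.90, -0.82 and -0.76, as was the augmin subunit HAUS3 (-0.78). KIF20B rested partly on DMSO replicate 1, which held 1386 CPM against 544 to 584 CPM in the other DMSO libraries, and without it its log2 fold change was -0.45. Of 22 genes of condensin, cohesin and separase, 3 were increased (the cohesin loaders NIPBL and MAU2, and CDCA5) and 2 decreased. Without DMSO replicate 1 the counts were 3 and 6 (13.6% and 27.3%), against 22.5% and 23.5% of all genes. With all libraries ESPL1, which encodes separase itself, had a log2 fold change of -0.80 (SE 0.20) and the cohesin acetyltransferase ESCO1 one of -0.76 (0.11). In the APC/C list of 17, ANAPC4, a scaffold subunit, and FBXO5, the inhibitor that restrains the complex in S phase and G2, were decreased (-0.58 and -0.49) and 0 increased (1 at an unadjusted p under 0.05). Without DMSO replicate 1 this list had 6 increased and 3 decreased genes (35.3% and 17.6%), where 22.5% and 23.5% of all genes were called in these directions. Its median log2 fold change went from -0.05 to 0.02. ANAPC4 was at 77.3 CPM in that library and at 36.6 to 45.5 CPM in the other DMSO libraries, and its log2 fold change without it was -0.36. ANAPC13, a small subunit named after its values were seen, went from a log2 fold change of 0.51 (edgeR adjusted p = 0.10) to 0.78 (edgeR adjusted p = 2.4e-05).

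Of 16 regulators of mitotic entry, CDC25A was the only one called with all libraries, with a decrease from 59.0 ± 1.57 to 44.7 ± 2.72 CPM (SD, n = 5; log2 fold change -0.40, edgeR adjusted p = 0.0063). WEE1 and PKMYT1, the kinases that hold CDK1 inactive, had log2 fold changes of -0.19 (SE 0.16) and -0.31 (0.17). Of the 16, 3 were increased and 6 decreased (56.2%) without DMSO replicate 1, where 46.1% of all genes were called. By direction these were 18.8% and 37.5% of the list, against 22.5% and 23.5% of all genes. WEE1 was then among the decreased (-0.32, edgeR adjusted p = 0.023). CKS1B and CKS2, the small partners of CDK1, named after their values were seen, were then among the increased, with log2 fold changes of 0.98 and 0.93 where all libraries gave 0.35 and 0.66 (edgeR adjusted p = 0.59 and 0.076).

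Transcriptional regulators of the cell cycle genes were called in both directions, but not FOXM1 or MYBL2. FOXM1 stood at 71.7 CPM in DMSO replicate 1, at 151 to 168 CPM in the other DMSO libraries and at 145 to 196 CPM in SFN, with a log2 fold change of 0.24 (SE 0.21, edgeR adjusted p = 0.46). MYBL2 had one of 0.15 (SE 0.18). Of the 23 regulators listed 2 were increased and 5 decreased (8.7% and 21.7%, against 9.07% and 13.9% of all genes), and all 5 decreases passed 2-fold. Without DMSO replicate 1 the counts were 4 and 7 (17.4% and 30.4%, against 22.5% and 23.5% of all genes). NFYA, the regulatory subunit of NF-Y, fell from 70.5 ± 14.1 to 22.4 ± 4.22 CPM (SD, n = 5; log2 fold change -1.65, SE 0.18, edgeR adjusted p = 6.4e-05), and its groups did not overlap. E2F8 and E2F2, an E2F repressor and an E2F activator, had log2 fold changes of -1.73 and -1.54, on 22 to 326 and 45 to 276 counts in a library. LIN37, a MuvB subunit, had one of -1.50 on only 3 to 55 counts in a library, and E2F5 one of -1.48 on 28 to 152. The E2F8 groups overlapped, as DMSO replicate 1, at 4.23 CPM, lay among the SFN libraries (1.90 to 6.21 CPM). The other DMSO libraries held 14.9 to 17.1 CPM of E2F8. The increased regulators were LIN52, another MuvB subunit (0.70), and E2F3 (0.42). LIN52, E2F5 and E2F3 complete the counts and were named after their values were seen.

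Of the S-phase genes, which are expressed earlier in the cell cycle than the members, those called with all libraries were decreased. Of 41 tested, 0 were increased and 15 decreased (36.6%) by edgeR's quasi-likelihood test. Over all genes tested 9.07% were increased and 13.9% decreased. For the S-phase genes the counts were 1 and 18 by unadjusted p and 0 and 18 by DESeq2. Their median log2 fold change was -0.27. Without DMSO replicate 1 the counts were 1 and 23 (2.44% and 56.1%), against 22.5% and 23.5% of all genes. CCNE2, the cyclin E of the G1 to S transition, fell from 41.4 ± 7.11 to 9.33 ± 1.20 CPM (SD, n = 5; log2 fold change -2.15, edgeR adjusted p = 2.5e-06), and CDCA7, UHRF1 and HELLS had log2 fold changes of -1.22, -0.78 and -0.76. The summed level of the S-phase genes was 6081 to 8091 CPM in DMSO, with replicate 1 highest, and 5234 to 5717 CPM in SFN, so that these groups did not overlap while those of the summed mitosis genes did. The difference between the 2 lists was not tested.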

How the data were processed

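RNA from 5 DMSO and 5 SFN replicates was measured. Per the labels and the methods of the study, the authors made Lexogen QuantSeq libraries, which read the 3′ ends of transcripts, aligned the reads to GRCh38 with the Bluebee pipeline, and deposited the raw count of each gene (Ensembl identifiers) in each replicate, without normalization. The submitters' processing notes name FastQC, STAR, featureCounts and edgeR. Versions, use of strand and of molecular identifiers are not given in the sources used here.

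Samples were grouped by their labelled treatment. filterByExpr selected the genes, TMM scaled the libraries, and SFN was compared with DMSO by glmQLFit and glmQLFTest of edgeR 4.0.16 in R 4.3.3, with Benjamini-Hochberg adjustment over all 13378 genes tested. This count test was used in place of the authors' quantile-normalized limma model, whose repeated-measure term is not defined. The standard error (SE) of a log2 fold change is its size over the square root of its F statistic. Alternatives were DESeq2 1.42.0, limma-voom (limma 3.58.1) with quantile normalization or quality weights, other scalings and count filters, a replicate block, removal of each library's trend with transcript length, a test of the 2-fold limit, and each replicate left out. Replicates of the same group differed by a chi-square of 3.50 to 243 per degree of freedom. No library had thus been deposited under more than 1 label of its group, and pairs across the groups are not covered by this check. Counting error weighs most on LIN37, E2F8, E2F5 and E2F2, whose lowest libraries held 3, 22, 28 and 45 counts. GENCODE 44 held 28145 of the 28380 identifiers and gave positions and the lengths of canonical transcripts, and promoter sequences are from RefSeq. The methods were tested on simulated counts.

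The members and gene lists were chosen with earlier results of these data known. Values in every library are given for members with an adjusted p under 0.05 and, in a role group with none, for the member with the smallest p. The others are given by fold change and range. From the other lists FOXM1, MYBL2, WEE1, PKMYT1 and up to 4 called genes a list with the largest absolute log2 fold change are named.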

Additional observations from a re-analysis of the deposited data

Results flagged for a closer look

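Over the 36 members and 4 measures of the libraries, 80 groups of 5 replicates were examined for a replicate far from the rest, by the gap to its nearest neighbour divided by the range of the group. Such a gap was found in 23 of them, where chance gives about 1 in 20 if groups are independent. These groups share the same libraries, so 1 deviating library can be flagged many times. In 20 of the 23 the replicate was DMSO replicate 1, in 2 SFN replicate 2 and in 1 SFN replicate 5.

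DMSO replicate 1 was far above the other DMSO libraries for TOP2A (0.976), MAD2L1 (0.963), CENPE (0.958), PTTG1 (0.949), BIRC5 (0.924), CDK1 (0.863), UBE2C (0.812) and BUB3 (0.77). It was far below them for MKI67 (0.856), KIF23 (0.823), KIF11 (0.812), BUB1B (0.81), ANLN (0.806), TPX2 (0.779), KIF20A (0.775), KIF2C (0.752), PLK1 (0.734) and TTK (0.717). Its TMM factor (0.907) and its slope of log2 CPM on transcript length (0.866) were also the lowest of the DMSO libraries by such a gap. SFN replicate 2 was far above the other SFN libraries for CDC20 (0.729) and UBE2C (0.721), and SFN replicate 5 far below them for MAD2L1 (0.823). Which step of the experiment sets these libraries apart was not tested.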

How the results depend on the processing

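Counts of called genes and some fold changes depended on the settings. By limma-voom with sample quality weights 17 members were increased and 8 decreased, 46 and 53 of the other mitotic genes, 3 and 24 S-phase genes and 3874 and 4041 of all genes, and 1 member passed 2-fold. With DMSO replicate 1, SFN replicate 2 and SFN replicate 5 left out, a choice made after seeing the data, these counts were 16 and 9, 47 and 49, 4 and 24, and 3793 and 3849, and 1 member passed 2-fold. DESeq2's Wald test gave 10 increased members and quantile-normalized limma-voom 2 decreased ones. With the length trend removed 0 members were decreased, 23 of the other mitotic genes and 1 S-phase gene were increased, and with the replicate block added 0 members were decreased and 1 S-phase gene increased. The other mitotic genes had 4 increases under scaling by library size only and 5 without a low-count filter. When each replicate was left out in turn, between 5 and 14 members were increased and between 0 and 5 decreased, between 4 and 39 and between 15 and 38 of the other mitotic genes, between 0 and 1 and between 11 and 23 S-phase genes, and between 906 and 3058 and between 1470 and 3193 of all genes, and 0 members passed 2-fold. The highest counts all came without DMSO replicate 1, and the 0 decreased members without SFN replicate 3 or 4. Tested against the 2-fold limit itself, 0 members passed.

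Replicates with the same number in both groups had correlations of their deviations between -0.267 and 0.484. They cannot show whether the numbers pair the samples, since deviations of single libraries, such as DMSO replicate 1, enter them. With the replicate number as a block 5 members were increased and 1 decreased, 6 of the other mitotic genes were increased, and 911 and 1530 of all genes were called, and the BUB3 call was lost (edgeR adjusted p = 0.092).

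Some log2 fold changes close to 0 changed sign, and the cause was not tested. By quantile-normalized limma-voom they were -0.010 for CCNB1, -0.014 for PLK1, -0.092 for KIF11, -0.017 for KIF2C and -0.0093 for KIF23. Under library size only they were -0.044 for CDC25C, -0.073 for PLK1, -0.055 for KIF11 and -0.032 for KIF2C. With quality weights they were -0.12 for PLK1, 0.22 for TOP2A, -0.11 for KIF11, -0.031 for KIF2C, -0.014 for NUSAP1 and -0.056 for PRC1. With the length trend removed they were -0.024 for CDC25C, -0.036 for PLK1, 0.030 for CENPF and 0.018 for TOP2A, and with the replicate block as well -0.023 for CDC25C, 0.028 for CENPF and 0.18 for TOP2A. TOP2A was at 0.0054 with DESeq2's size factors, 0.0054 by its Wald test and 0.067 with the replicate block. With the 3 libraries left out they were -0.15 for PLK1, 0.21 for TOP2A, -0.11 for KIF11, -0.020 for KIF2C and -0.025 for PRC1. When each replicate was left out in turn, the range was -0.0012 to 0.072 for CDC25C, -0.14 to 0.13 for PLK1, -0.078 to 0.63 for PTTG1, -0.076 to 0.27 for TOP2A, -0.11 to 0.17 for KIF11, -0.014 to 0.094 for KIF2C, -0.026 to 0.22 for NUSAP1 and -0.0079 to 0.26 for PRC1. Under the alternatives that kept all libraries or left 3 out, 653 single values kept their direction and side of the threshold, 51 came to pass it, 22 no longer passed it and 30 changed sign. With 1 replicate left out these numbers were 552, 14, 48 and 16.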

Other observations

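The place of the TTTGAA letters in the promoters was looked at after their positions had been seen. On the strand of the gene and within 40 bases before the start, 12 of the 40 member windows held them (30.0%), from 12 members. None of the 46 S-phase windows did, and 0.674% of the windows of genes tested and 0.977% of all windows did. CCAAT in the same stretch and on the same strand was found in 2 member windows (5.0%), in 6 of the 46 S-phase windows and in 2.49% of all windows. In the CHR variant TTCGAA the counts were 1 member window (2.5%) and 0.117% of all windows.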
